A study of Rattus norvegicus and Mus musculus with 12 samples.

Results

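The genes described here encode the collagens of the cartilage fibril and its neighbours, namely collagen II (Col2a1), collagen IX (Col9a1, Col9a2 and Col9a3), collagen X (Col10a1), collagen XI (Col11a1 and Col11a2) and collagen XXVII (Col27a1). They were found by gene symbol, and all 8 were present among 19687 rat genes and among 28603 mouse genes. RNA-seq had been run on passage 1 articular chondrocytes of newborn animals, from the SD rat (groups RC and RM) and from the C57BL/6 mouse (groups MC and MM), to compare the inflammatory response of the species. RC and MC were untreated controls, and RM and MM were the models, which received 20 ng/ml interleukin-1β (IL-1β), an inflammatory cytokine, for 24 h. All cells were kept in medium with fetal bovine serum, none carried a genetic change, and each group held 3 libraries described as independent samples. The labels do not say whether these came from separate animals or from dishes of a shared isolation, so the P values measure the spread between these libraries. The strain labels of the mouse libraries run from C57BL/6 to C57BL/8 in MC and from C57BL/7 to C57BL/9 in MM, whereas the study names C57BL/6 for all of them.

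Cartilage owes its tensile strength to thin fibrils whose main component is collagen II, a homotrimer of the Col2a1 product. Collagen XI lies within the fibril, where it seeds assembly and limits the width, and it contains the Col11a1 and Col11a2 products together with a further chain derived from Col2a1. Collagen IX is a heterotrimer of its own Col9a1, Col9a2 and Col9a3 chains that is crosslinked to the fibril surface and links it to the surrounding matrix. Collagen XXVII is a further fibrillar collagen of cartilage, and collagen X forms networks around hypertrophic chondrocytes, the cells that precede mineralisation. Loss of collagen II is a hallmark of chondrocytes that lose their phenotype, and IL-1β is widely used to induce it in culture.

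A collagen chain is a repeat of glycine followed by any pair of residues, and most exons of these genes are built from whole repeats. In the mouse annotation (GENCODE M21 on GRCm38), 266 of the 336 internal coding exons of the collagen set had a length that was a multiple of 9 bases, against 14.3% of 159213 internal coding exons of all protein-coding genes. Exactly 54 bases were found in 161 of them, against 0.733% of all. To show this shared unit, the first 54-base exon in transcript order with a glycine codon (GG and any base) at every 9 bases is printed for each gene that has one, with the glycine codons in capitals. These exons lie in the coding sequence at chr15:97998545-97998598 (minus strand), chr1:24202014-24202067, chr4:121043696-121043749, chr2:180601582-180601635, chr3:114108281-114108334, chr17:34051480-34051533 and chr4:63231792-63231845 (all plus strand), in the order printed.
Col2a1: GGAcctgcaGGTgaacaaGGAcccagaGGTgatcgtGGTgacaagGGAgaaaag
Col9a1: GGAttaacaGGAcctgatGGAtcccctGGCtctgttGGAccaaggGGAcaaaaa
Col9a2: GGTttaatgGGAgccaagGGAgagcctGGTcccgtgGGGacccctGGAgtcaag
Col9a3: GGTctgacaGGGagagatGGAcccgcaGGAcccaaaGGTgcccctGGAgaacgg
Col11a1: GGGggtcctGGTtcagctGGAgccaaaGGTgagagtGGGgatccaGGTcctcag
Col11a2: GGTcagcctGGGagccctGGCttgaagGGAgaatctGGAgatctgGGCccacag
Col27a1: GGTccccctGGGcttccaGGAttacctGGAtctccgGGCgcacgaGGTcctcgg

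Each printed exon holds 6 glycine codons in the same places, while the bases between them differ. Col10a1 had 2 coding exons and no internal one, so no such exon could be shown for it. Despite the shared repeat, no stretch of 50 bases of one gene's exons occurred in another gene of the set, so reads of that length could be assigned among them. The mouse genes lie at chr15:97975602-98004695 (Col2a1), chr1:24177610-24252684 (Col9a1), chr4:121039385-121055322 (Col9a2), chr2:180597790-180622189 (Col9a3), chr10:34389981-34397085 (Col10a1), chr3:114030540-114220718 (Col11a1), chr17:34039437-34066685 (Col11a2) and chr4:63214004-63334991 (Col27a1). Col9a3 shares 234 exonic bases with Tcfl5, and Col10a1 lies inside Nt5dc1 and shares 18 exonic bases with it, in both cases on opposite strands. The strand setting of the counting is not given in the sources used here, so reads in these stretches cannot be told apart. Tcfl5 had at most 279 reads and Nt5dc1 at most 308 reads in any mouse library.

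Reads counted on genes per library ranged from 20169272 to 25903459 in rat, and in mouse the range was 16841580 to 20048322. The chondrocyte markers were present in the controls of both species, with summed levels of 1834 to 2018 FPKM (fragments scaled by gene length and by the reads of the library) in RC and 1184 to 1204 FPKM in MC. Of 12 chondrocyte markers, 11 were lower and 1 (Prg4, lubricin) was higher in the model of each species. Of 10 markers of dedifferentiated, fibroblast-like cells, 4 were lower and 2 higher in RM, and 6 were lower and 4 higher in MM. The leukocyte markers Ptprc, Adgre1 and Aif1 stayed at or below 0.101 FPKM on average in all groups, and no Cd3e value was analysed here. Others of the list were higher in rat. Laptm5 averaged 3.26 FPKM in RC and 1.08 in RM, against 0.107 in MC and 0.0747 in MM. Tyrobp averaged 0.795 FPKM in RC and 0.628 in RM, against 0.0862 in MC and 0.0541 in MM. The summed level of the leukocyte list was 19.6 to 23.2 FPKM in RC, 31.0 to 33.5 in RM, 5.71 to 6.21 in MC and 32.1 to 33.7 in MM, and its higher level in the models came mainly from Cd14 and Cd68. Of the leukocyte list, 2 of 5 genes tested were higher and 2 lower in RM, and 3 of 3 were higher in MM. Endothelial markers (1 tested and lower in RM, 2 of 3 lower and 1 higher in MM) and muscle markers (1 of 2 lower in RM, 3 of 3 lower in MM) had summed levels below 10 FPKM in every library. Erg was the endothelial gene tested in rat and made up most of that list's sum in the controls (3.81 FPKM in RC, 7.97 in MC). Cdh5 and Kdr averaged 0.121 and 0.0763 FPKM in MM and less in the other groups. The part of these lists in the collagen results was not tested. In bulk RNA, fewer cells that express a gene and less RNA of it per cell cannot be told apart.

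The first question was how IL-1β altered the cartilage collagens in rat. With edgeR's quasi-likelihood test and Benjamini–Hochberg adjustment over the 13303 genes tested, 7 of the 8 genes were significantly downregulated in RM, and Col10a1 did not pass. In all rat genes tested, 16.8% were called lower and 18.3% higher. The study's methods also give thresholds on fold change (0.85), P (0.05) and FPKM (1 in any library), without naming the scale of the fold change or an adjustment of P. Read here as a log2 fold change and an unadjusted P, they called 6 genes lower, against 3.9% of all genes, and Col11a1 dropped out. The median log2 fold change of the set was -1.18, beside 0.0052 for all rat genes tested, and 4.39% of all genes lay below -1.

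The same test in mouse called all 8 genes lower in MM. Here the response of the whole transcriptome was wide, with 37.6% of 14774 genes called lower and 37.4% higher. All 8 also passed the study's thresholds in this reading, against 13% of all genes. The median log2 fold change of the set was -2.99, beside -0.016 for all mouse genes tested, and 15% of all genes lay below -1. The scaling of libraries matters more in mouse than in rat. TMM factors, which edgeR uses to align libraries on the bulk of their genes, were 1.10 in MC and 0.905 to 0.911 in MM, and with library size alone the median of all mouse genes was -0.29 and that of the set -3.27.

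**Figure D1:**
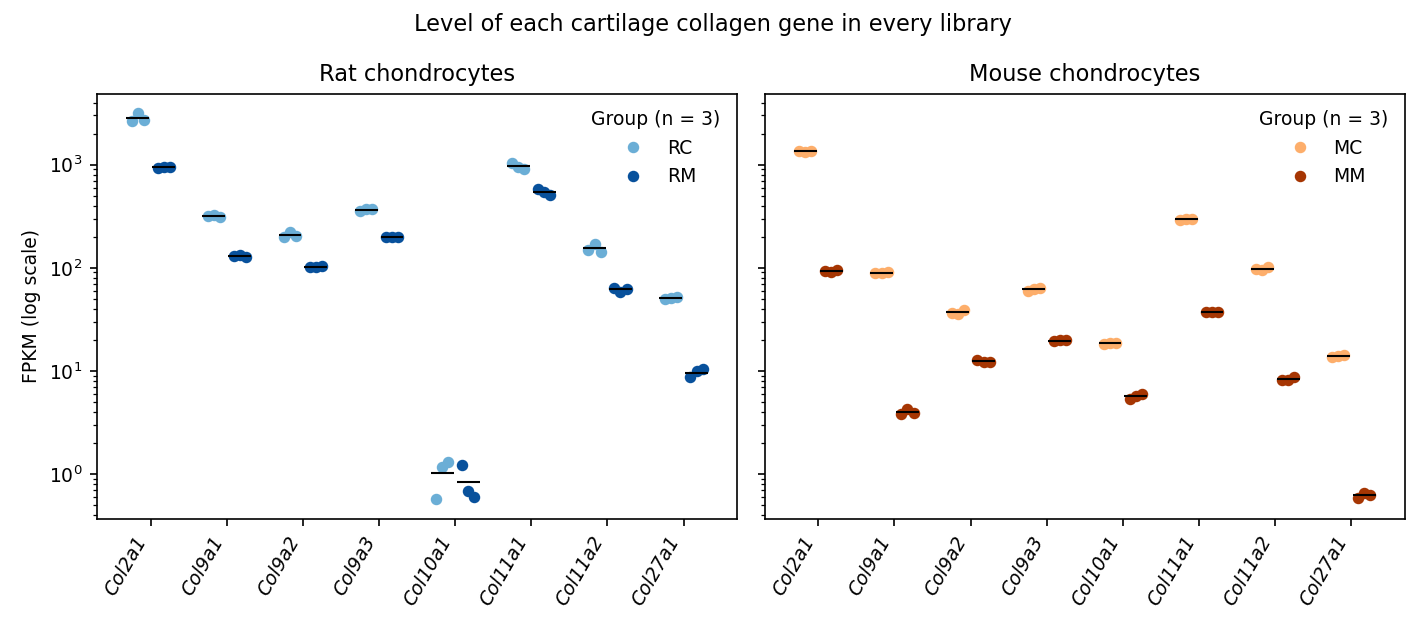
Level of each gene in FPKM on a log axis, for rat (left) and mouse (right), with 1 point per library and a bar at the mean of 3. Except for Col10a1 in rat, the model libraries lie below every control library of the same species. The share of all genes without overlap between groups was not computed.

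Collagen II was the most abundant of the set in every group. In rat, Col2a1 (ENSRNOG00000058560) stood at 2629, 3179 and 2706 FPKM in the RC libraries and at 925, 954 and 951 FPKM in the RM libraries. The groups did not overlap, and the second RC library was the highest. The level went from 2838 ± 298 to 943 ± 16.3 FPKM (mean ± SD, n = 3), a log2 fold change of -1.60 (SE 0.074, adjusted P = 1.44e-07, edgeR), or 32.9% of the control. In mouse, Col2a1 (ENSMUSG00000022483) stood at 1349.9, 1322 and 1369 FPKM in MC and at 92.9, 91.9 and 96.1 FPKM in MM. All 3 MM libraries were far below all 3 MC libraries, with a log2 fold change of -3.57 (SE 0.025, adjusted P = 7.4e-75, edgeR), or 8.44% of the control.

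Collagen XI, the partner of collagen II inside the fibril, showed a smaller decrease than Col2a1 in each species. Col11a1 in rat (ENSRNOG00000023148) was measured at 1030.1, 946 and 917 FPKM in RC and at 574, 546 and 509.7 FPKM in RM, without overlap. Its log2 fold change of -0.84 (SE 0.066, adjusted P = 6.6e-06, edgeR) was just short of 0.85, the study's threshold when read on the log2 scale. When 1 rat library at a time was left out, it ranged from -0.88 to -0.80, on both sides of that threshold. In mouse (ENSMUSG00000027966), Col11a1 went from 293, 299 and 298 FPKM in MC to 37.3, 37.3 and 37.5 FPKM in MM, a log2 fold change of -2.71 (SE 0.026, adjusted P = 2.75e-67, edgeR). Col11a2, which encodes the second chain of collagen XI, was measured in rat (ENSRNOG00000000463) at 149, 169 and 144 FPKM in RC and at 63.3, 58.8 and 62.8 FPKM in RM. This was a log2 fold change of -1.34 (SE 0.075, adjusted P = 5.8e-07, edgeR), again with no overlap between groups. The mouse gene (ENSMUSG00000024330) went from 96.2, 95.5 and 101.5 FPKM in MC to 8.16, 8.17 and 8.76 FPKM in MM, a log2 fold change of -3.27 (SE 0.036, adjusted P = 2.91e-63, edgeR).

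The chains of collagen IX, which decorate the fibril surface, kept different parts of their control level, above all in mouse. Col9a1 in rat (ENSRNOG00000012920) was at 318, 326 and 309.8 FPKM in RC and at 129, 133 and 126 FPKM in RM, a log2 fold change of -1.31 (SE 0.059, adjusted P = 1.23e-07, edgeR). In mouse (ENSMUSG00000026147), it went from 88.6, 88.5 and 91.5 FPKM in MC to 3.78, 4.25 and 3.93 FPKM in MM. With a log2 fold change of -4.21 (SE 0.044, adjusted P = 4.96e-65, edgeR), or 5.4% of the control, Col9a1 and Col27a1 had the lowest remaining levels relative to MC of the set. The other two chains changed less. Col9a2 in rat (ENSRNOG00000011502) was at 200.5, 222 and 203 FPKM in RC and at 103, 102 and 103 FPKM in RM, a log2 fold change of -1.04 (SE 0.064, adjusted P = 1.04e-06, edgeR). In mouse (ENSMUSG00000028626), its values were 36.7, 35.6 and 39.0 FPKM in MC and 12.8, 12.1 and 12.3 FPKM in MM, a log2 fold change of -1.30 (SE 0.048, adjusted P = 1.77e-34, edgeR). Col9a2 thus kept 40.5% of its control level in mouse, against 5.4% for Col9a1. Col9a3 in rat (ENSRNOG00000009531) was at 354, 372 and 372 FPKM in RC and at 197, 197 and 201 FPKM in RM, a log2 fold change of -0.90 (SE 0.058, adjusted P = 1.49e-06, edgeR). In mouse (ENSMUSG00000027570), it was at 59.4, 62.7 and 64.0 FPKM in MC and at 19.3, 20.0 and 19.8 FPKM in MM, a log2 fold change of -1.38 (SE 0.038, adjusted P = 4.92e-41, edgeR). None of the collagen IX genes had overlapping groups in either species. How common such separation is among all genes was not computed, so it is not taken as a trait of the set.

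Collagen XXVII had the largest decrease of the set in rat. Col27a1 in rat (ENSRNOG00000007657) was at 49.8, 50.9 and 52.4 FPKM in RC and at 8.66, 9.92 and 10.3 FPKM in RM, a log2 fold change of -2.42 (SE 0.082, adjusted P = 1.34e-08, edgeR), or 18.7% of the control. In mouse (ENSMUSG00000045672), the values were 13.6, 13.8 and 14.3 FPKM in MC and 0.582, 0.660 and 0.619 FPKM in MM. The log2 fold change was -4.21 (SE 0.058, adjusted P = 4.39e-58, edgeR), and the MM libraries fell below 1 FPKM.

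Col10a1, the marker of hypertrophic chondrocytes, rested on few reads in rat and on many more in mouse. The rat libraries (ENSRNOG00000051399) held 29, 56 and 56 reads in RC and 50, 36 and 29 reads in RM. These counts correspond to 0.570, 1.18 and 1.30 FPKM and to 1.21, 0.680 and 0.593 FPKM, so the groups overlapped. The log2 fold change of -0.32 (SE 0.364, adjusted P = 0.534, edgeR) had a 95% confidence interval from -1.12 to 0.49. A change of either sign within these bounds was not resolvable from so few reads of the gene. In mouse (ENSMUSG00000039462), 975, 982 and 1042 reads were counted in MC and 335, 348 and 328 in MM. The level went from 18.2, 18.6 and 18.5 FPKM to 5.34, 5.68 and 5.99 FPKM, a log2 fold change of -1.43 (SE 0.064, adjusted P = 1.07e-29, edgeR). Of 8 other markers of hypertrophic chondrocytes and osteoblasts, 4 of 6 tested were lower and 1 higher in RM, and 6 of 7 tested were lower and 1 higher in MM. The higher gene was Spp1 (osteopontin) in both, with log2 changes of 1.03 in rat (SE 0.083) and 3.65 in mouse (SE 0.026), while Ibsp (bone sialoprotein) changed by -6.97 in mouse (SE 0.262) and by -0.44 in rat (SE 0.263, adjusted P = 0.226). Pth1r, the receptor of parathyroid hormone, changed by -1.02 in rat (SE 0.131) and -2.44 in mouse (SE 0.140). Alpl, picked after its values were known, fell more in rat (-2.32, SE 0.134) than in mouse (-1.43, SE 0.115). When the species were compared directly, 3 of 5 genes of this list were lower in mouse and 2 higher.

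**Figure D2:**
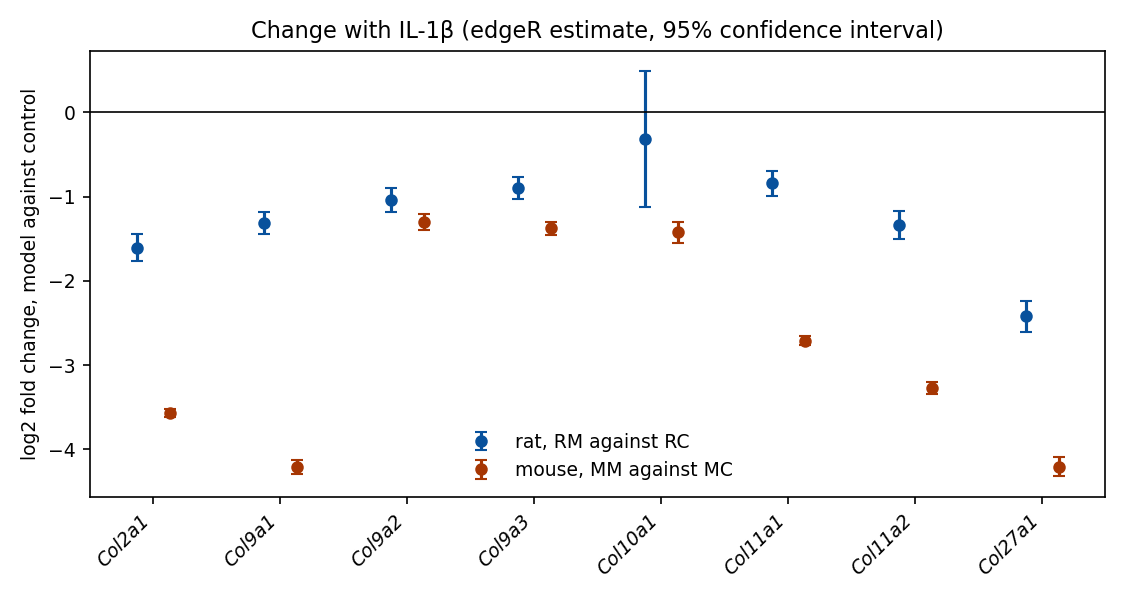
Log2 fold change of model against control for each gene with its 95% confidence interval (edgeR, 3 libraries per group), in rat (blue) and mouse (brown). In mouse the estimates run from -4.21 to -1.30, and the rat interval of Col10a1 spans 0.

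The levels within a group were well separated. In RC and RM the order of mean FPKM was Col2a1, Col11a1, Col9a3, Col9a1, Col9a2, Col11a2, Col27a1 and Col10a1. In MC it was Col2a1, Col11a1, Col11a2, Col9a1, Col9a3, Col9a2, Col10a1 and Col27a1. In MM it became Col2a1, Col11a1, Col9a3, Col9a2, Col11a2, Col10a1, Col9a1 and Col27a1, so that Col9a1 moved from the fourth place to the seventh. No gene's libraries overlapped with those of its neighbour in the order in any of the 4 groups. The order among rat genes was therefore the same with and without IL-1β, whereas in mouse the Col9a1 and Col11a2 genes changed places with other chains. FPKM order depends on the gene lengths used. In MC, Col27a1 had 3027, 3028 and 3341 reads over 13022 bases, and Col10a1 had 975, 982 and 1042 reads over 3130 bases. The order between genes, and how it differs between rat and mouse, can therefore partly reflect the gene models. Within a species the same lengths apply to control and model.

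The difference in response between the species was then tested directly. In one edgeR fit of the 12 libraries over 10912 genes that share a symbol and were expressed in both species, the mouse response after subtraction of the rat response was below 0 at an adjusted P under 0.05 for all 8 genes. Of all genes in that fit, 32.3% were called lower in mouse and 31.4% higher. Col9a1 had the largest difference, -2.90 on the log2 scale (SE 0.073, adjusted P = 6.23e-15, edgeR). A group of similar size followed, with -1.96 for Col2a1 (SE 0.087, adjusted P = 4.84e-12), -1.93 for Col11a2 (SE 0.087, adjusted P = 5.11e-12), -1.87 for Col11a1 (SE 0.078, adjusted P = 1.92e-12) and -1.79 for Col27a1 (SE 0.0996, adjusted P = 8.74e-11). The 95% confidence intervals of these 4 differences overlapped. Smaller differences were found for Col9a3, -0.47 (SE 0.065, adjusted P = 7.18e-06), and Col9a2, -0.26 (SE 0.076, adjusted P = 0.0066). For Col10a1 the difference was -1.10 (SE 0.312, adjusted P = 0.00543, edgeR), with a 95% confidence interval from -1.76 to -0.44. Without any 1 of the 12 libraries this difference ranged from -1.31 to -0.76, with an adjusted P of at most 0.0438. The fit estimated the spread of each gene over both species together. Its SE for Col10a1 was below that of the rat change alone (0.364). How far the Col10a1 call rests on this pooling was not tested.

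Since chains of collagen IX are assembled together, and likewise those of collagen XI, the ratio of chains was computed within each library, where the scaling of libraries cancels. A group of 3 against 3 cannot give a two-sided exact permutation P below 0.1, and 17 of 18 ratios reached this minimum (0.106 after Benjamini–Hochberg adjustment over 18), which equals no overlap between groups. The Col9a1 to Col9a2 ratio of FPKM was 2.41 in MC and 0.321 in MM (geometric means), with log2 ratios of 1.27, 1.31 and 1.23 in MC and of -1.76, -1.51 and -1.64 in MM. In terms of FPKM, which depends on the gene lengths used, Col9a1 was thus the more abundant transcript in MC and the less abundant in MM. In rat the same ratio went from 1.52 in RC to 1.26 in RM, with log2 ratios of 0.67, 0.55 and 0.61 against 0.34, 0.39 and 0.29. The Col9a1 to Col9a3 ratio likewise went from 1.45 (MC) to 0.202 (MM), and from 0.868 (RC) to 0.653 (RM). In contrast, Col9a2 and Col9a3 kept nearly the same ratio, 0.598 in MC and 0.629 in MM, where the groups overlapped (exact permutation P = 0.4), and 0.569 in RC and 0.517 in RM, where they did not.

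**Figure D3:**
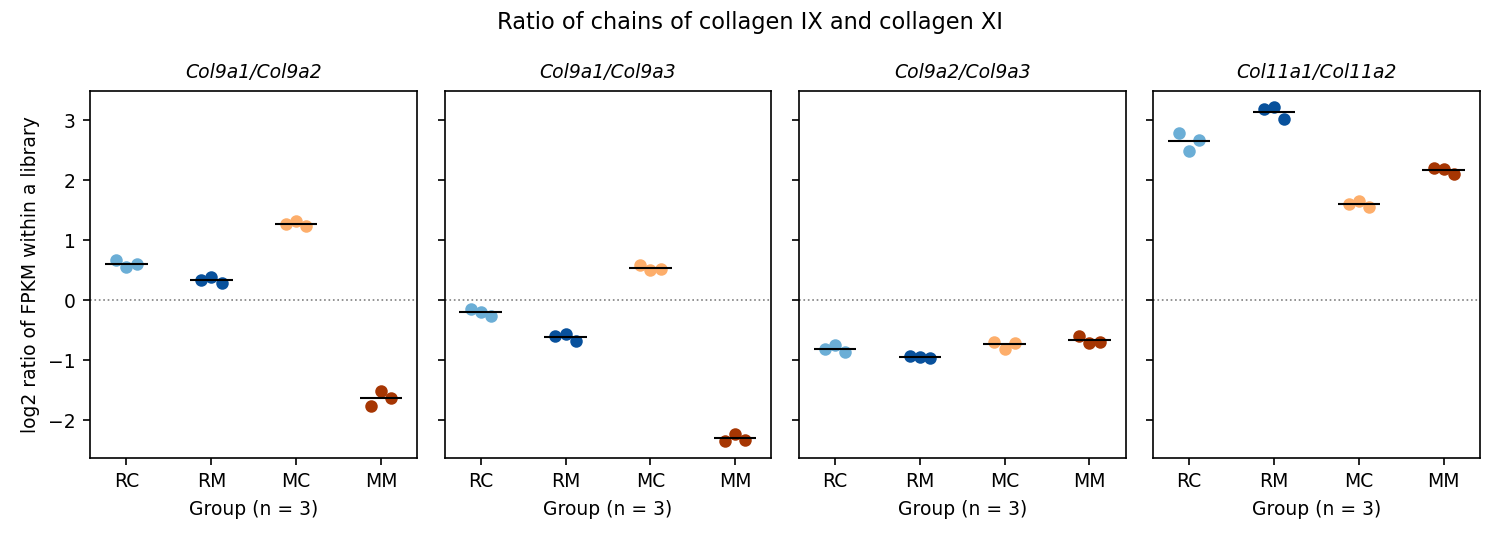
Log2 ratio of the FPKM values of chain pairs of collagen IX and of collagen XI in each library, with a bar at the mean of 3 libraries and a dotted line at equal levels. Col9a1 falls below Col9a2 and Col9a3 in MM, while the Col9a2 to Col9a3 ratio stays between -1 and -0.5 in all 12 libraries.

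The chains of collagen XI moved in one direction in both species. The Col11a1 to Col11a2 ratio went from 6.27 in RC to 8.81 in RM and from 3.03 in MC to 4.47 in MM, a shift of 0.49 and 0.56 on the log2 scale. Relative to Col2a1, Col11a1 shifted by 0.76 in rat and 0.86 in mouse, and Col11a2 by 0.27 and 0.30. Both collagen XI transcripts were therefore more abundant relative to Col2a1 in the models, while their own levels were lower. Col27a1 shifted the other way, by -0.82 in rat and -0.64 in mouse. Of the ratios to Col2a1 computed, only that of Col9a1 had opposite signs in the species, 0.29 in rat and -0.65 in mouse. The difference between the species in this ratio was not tested. Col10a1 relative to Col2a1 shifted by 1.31 in rat and 2.14 in mouse, the rat value resting on the few Col10a1 reads given above.

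The set took up 2.36, 2.57 and 2.31% of all reads counted on genes in the RC libraries and 1.02, 1.02 and 0.988% in RM. In mouse, it took up 1.79, 1.77 and 1.82% in MC and 0.155, 0.154 and 0.159% in MM. The share was thus 2.39-fold lower in RM than in RC and 11.5-fold lower in MM than in MC. These folds are not scaled by TMM. Within the set, Col2a1 accounted for 53.3% of the reads in RC and 42.4% in RM, and for 69.4% in MC and 55.5% in MM. The Col11a1 share of the set was 30.8% in RC and 41.3% in RM, and 21.1% in MC and 30.5% in MM. In mouse, the share of Col9a3 within the set went from 1.33% to 4.87% and that of Col9a2 from 0.640% to 2.46%, while that of Col9a1 went from 2.53% to 1.30%.

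**Figure D4:**
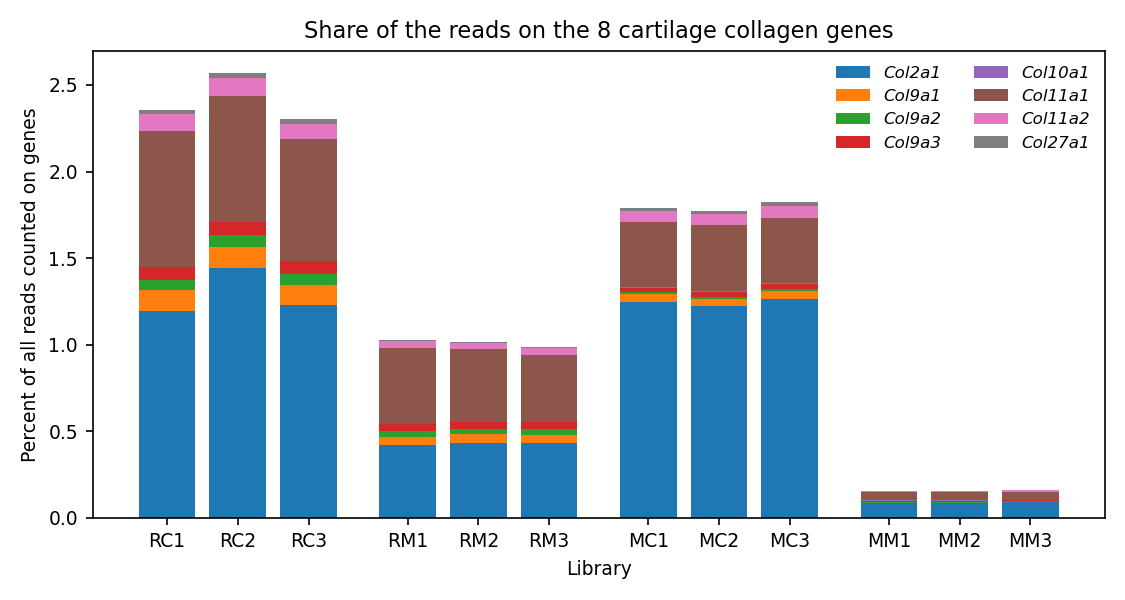
Percent of all reads counted on genes that fell on each gene of the set, stacked per library. The stacks reach 2.31 to 2.57% in RC, 0.988 to 1.02% in RM, 1.77 to 1.82% in MC and 0.154 to 0.159% in MM, and Col2a1 and Col11a1 fill most of each.

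The cartilage collagens were next set beside other collagens. Of the 7 other fibrillar collagen genes, 7 were lower in RM, whereas 4 were lower and 3 higher in MM. Col1a1, which encodes the main chain of collagen I, was lower in both, with log2 changes of -0.90 in rat (SE 0.076) and -1.48 in mouse (SE 0.022). Its partner Col1a2 changed by -0.89 in rat (SE 0.177) and -2.05 in mouse (SE 0.022). The 3 genes higher in MM were Col5a3, Col5a2 and Col3a1. Col5a3, a chain of collagen V, went from 27.8 FPKM in RC to 11.3 in RM but from 5.10 in MC to 49.0 in MM, with log2 changes of -1.31 (SE 0.081, adjusted P = 1.05e-06, edgeR) and 3.54 (SE 0.040, adjusted P = 7.86e-63, edgeR). Col5a2 changed by -0.35 in rat (SE 0.054) and 1.17 in mouse (SE 0.023). For Col3a1, the chain of collagen III, the values were -0.98 in rat (SE 0.061) and 0.16 in mouse (SE 0.023), and the sign in mouse depended on the scaling (-0.12 with library size alone). Collagen V can form fibrils with collagen XI chains, and none of the 8 cartilage genes rose with Col5a2 and Col5a3 in mouse. Among the other collagens of the collagen IX class, 3 of 4 tested were lower in RM, and 2 of 6 were lower and 2 higher in MM. Col14a1 changed by -1.10 in rat (SE 0.092) and -4.70 in mouse (SE 0.109), Col12a1 by -0.81 (SE 0.092) and -0.38 (SE 0.025), and Col16a1 by -0.83 (SE 0.080) and 0.49 (SE 0.034).

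**Figure D5:**
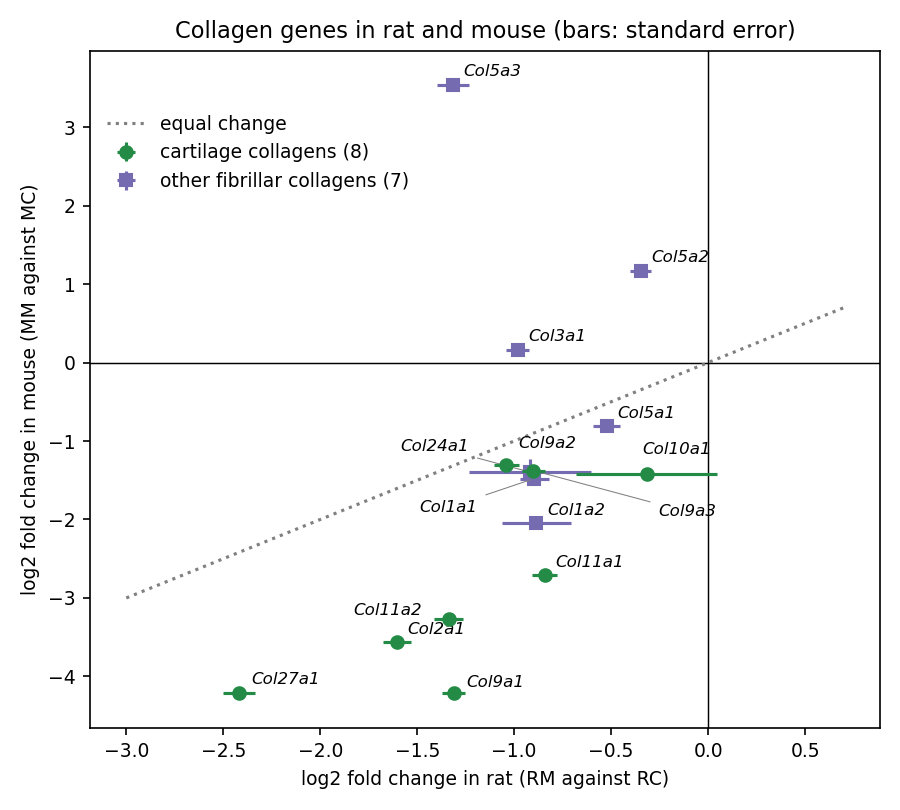
Log2 fold change in rat (x axis) against mouse (y axis) for the 8 cartilage collagen genes (circles) and the 7 other fibrillar collagen genes (squares), with standard errors and a dotted line of equal change. All circles lie below the dotted line, and Col5a3, Col5a2 and Col3a1 lie above 0 on the mouse axis, the last with the scaling by TMM.

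Partners of the collagen network moved in the direction of the set. Of 16 such genes, 14 were lower and 2 higher in the model of each species. Of all genes tested, 16.8% were called lower in rat and 37.6% in mouse. The medians of the 16 were -1.12 (rat) and -2.22 (mouse) on the log2 scale. In the direct test, 10 were lower in mouse than in rat and 3 were higher, against 32.3% and 31.4% of all genes. With 1 library left out, 11 to 14 were called lower in rat and 13 to 14 in mouse. Several of the 16, such as Acan and Comp, also count among the chondrocyte markers above. Acan (aggrecan) changed by -1.80 in rat (SE 0.092) and -3.94 in mouse (SE 0.045). Fmod (fibromodulin, a fibril-binding proteoglycan) changed by -0.47 (SE 0.069) and -3.17 (SE 0.031). Against this direction, Dcn (decorin), a further fibril-binding proteoglycan, changed by 2.27 in rat (SE 0.109) and 4.99 in mouse (SE 0.030). Of the marker genes, Cnmd (chondromodulin) changed by -1.41 in rat (SE 0.076) and -5.07 in mouse (SE 0.054), and Prg4 by 5.79 (SE 0.077) and 3.36 (SE 0.038).

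Transcription factors of the chondrocyte lineage, listed together with the ubiquitin ligase Wwp2, were called in both directions. Of 15, 9 were lower and 2 higher in RM (median -0.35), and 10 were lower and 4 higher in MM (median -0.93). Without the third RM library, 5 were called lower in rat. Sox9, the factor that drives Col2a1, Col9a1 and Col11a2 and which was picked for this after its values were known, went from 28.1 ± 0.398 to 18.1 ± 0.974 FPKM in rat (log2 fold change -0.65, SE 0.072) and from 42.8 ± 0.842 to 16.99 ± 1.38 FPKM in mouse (-1.06, SE 0.042; mean ± SD, n = 3). Sox6, its cofactor, changed by -0.30 in rat (SE 0.078) and -1.36 in mouse (SE 0.047). Sox5 of the same list, also picked after its values were known, went the other way in mouse (0.86, SE 0.047). In rat Sox5 was not called (-0.18, SE 0.084, adjusted P = 0.131, edgeR). Wwp2, whose locus carries a microRNA of cartilage, changed by -0.95 (SE 0.082) and -1.58 (SE 0.038), and Hif1a by 0.48 (SE 0.095) and 1.13 (SE 0.031). The Sox6 call in rat was lost without the third RC library (-0.26) or the third RM library (-0.27).

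The enzymes that modify, fold and process collagen chains did not move as a block. Of 20 modification and folding genes tested in rat, 12 were lower and 3 higher (median -0.27), and of 22 tested in mouse, 13 were lower and 9 higher (median -0.22). Serpinh1, the collagen chaperone HSP47, was lower in both, with -0.87 in rat (SE 0.075) and -1.33 in mouse (SE 0.025). The lysyl hydroxylase Plod2 was higher in both, with 0.65 (SE 0.094) and 1.79 (SE 0.030), whereas Plod1 changed by 1.81 in mouse (SE 0.028) and by -0.12 in rat (SE 0.069, adjusted P = 0.193). Opposite directions were called for P4ha3, a prolyl hydroxylase subunit (0.50 in rat, SE 0.072, and -2.90 in mouse, SE 0.073), for Plod3 (-0.42, SE 0.075, and 0.69, SE 0.033) and for the galactosyltransferase Colgalt2 (-1.52, SE 0.131, and 1.50, SE 0.139). P3h3 was also called in opposite directions (-0.38 and 0.30), but its mouse call was lost with library size alone (0.019).

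Of the genes for procollagen processing and crosslinking, 9 of 13 tested were lower and 2 higher in RM, and 9 of 14 were lower and 3 higher in MM. Lox (lysyl oxidase) was higher in both, with log2 changes of 1.47 in rat (SE 0.077) and 1.36 in mouse (SE 0.024), and these did not differ past the threshold (difference -0.11, adjusted P = 0.304). Loxl2 changed by -0.51 in rat (SE 0.069) and 2.71 in mouse (SE 0.036), and Loxl4 by -0.83 (SE 0.072) and -1.31 (SE 0.033). Among collagenases and other genes of collagen turnover, 5 of 9 tested were higher and 3 lower in RM, and 6 of 9 were higher and 2 lower in MM. Mmp13, the collagenase that cleaves collagen II, went from 31.5 to 261 FPKM in rat (log2 fold change 3.03, SE 0.099) and from 28.3 to 725 FPKM in mouse (4.96, SE 0.034). Mmp3 (stromelysin) changed by 5.92 in rat (SE 0.086) and 13.30 in mouse (SE 0.048), where MC held only 0.954 FPKM. Mmp2 changed by 0.55 (SE 0.080) and 0.69 (SE 0.029). Ctsk, Mrc2 and the aggrecanase Adamts5 were called in opposite directions, with -0.96 in rat and 0.45 in mouse for Ctsk, -0.33 and 0.47 for Mrc2, and 1.49 and -0.30 for Adamts5. The rat call of Mrc2 was lost without the first RM library (-0.30, adjusted P = 0.054, edgeR).

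Receptors for collagen were also examined. Of 7 genes, 4 were lower and 2 higher in RM, and 5 were lower and 2 higher in MM (none higher with library size alone). Itga10, the α10 integrin subunit that binds collagen II, changed by -1.27 in rat (SE 0.143) and -1.97 in mouse (SE 0.079), and Itga11 by -0.95 (SE 0.090) and -2.02 (SE 0.062). Itga1 and Itga2 were higher in RM (0.71 and 1.79) and lower in MM (-2.50 and -0.72). For the receptor kinase Ddr2, the values were -0.51 in rat and 0.28 in mouse, and the mouse call was lost with library size alone (0.0044).

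The genes nearest to a member were found over all 12 libraries, by the distance between log2 CPM profiles after subtraction of the control mean of the same species, among 9263 genes. Nearest to Col2a1 were Islr (distance 0.353), Mfap2 (0.544), a microfibril protein, and Smpd3 (0.725), a sphingomyelinase. Islr changed by -1.48 in rat and -3.57 in mouse, close to the -1.60 and -3.57 of Col2a1. Nearest to Col9a1 were Itgbl1 (0.494), Lrrc17 (0.643) and Srpx (0.691), and Itgbl1 changed by -1.34 and -4.37. Nearest to Col10a1 were Smim1 (0.340), Ace (0.787) and Ddah2 (0.917), which were all lower in mouse, by -1.43, -1.53 and -1.11, and did not pass the test in rat (adjusted P = 0.401, 0.415 and 0.778, edgeR). All of these genes were picked by closeness over the same libraries, so the likeness of their changes follows from the choice. The rat profile of Col10a1 that was matched rested on few reads.

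Rat promoters (250 bases before the RefSeq start site, GRCr8 build) had an entry for 6 of the 8 genes, namely Col9a1, Col9a2, Col10a1, Col11a1, Col11a2 and Col27a1. No entry matched Col2a1 or Col9a3. Those of the least and the most altered gene in rat, Col10a1 and Col27a1, and of Col11a2 are printed because they differ in composition and motifs. They lie at chr20:39737286-39737535 (plus strand), chr5:81662658-81662907 (plus strand) and chr20:4817649-4817898 (minus strand). Capitals mark TATAAA and ACAAAG in Col10a1 and GGGCGG and the NF-kB consensus in the others, found on both strands and with overlaps counted.
Col10a1: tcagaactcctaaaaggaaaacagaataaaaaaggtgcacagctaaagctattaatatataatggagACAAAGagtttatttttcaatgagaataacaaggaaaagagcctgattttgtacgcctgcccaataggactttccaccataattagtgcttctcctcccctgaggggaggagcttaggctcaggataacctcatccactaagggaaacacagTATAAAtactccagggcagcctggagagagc
Col27a1: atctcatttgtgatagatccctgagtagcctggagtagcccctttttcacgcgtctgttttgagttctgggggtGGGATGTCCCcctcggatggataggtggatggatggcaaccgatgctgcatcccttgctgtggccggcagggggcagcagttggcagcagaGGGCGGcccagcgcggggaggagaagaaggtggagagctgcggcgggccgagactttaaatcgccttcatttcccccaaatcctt
Col11a2: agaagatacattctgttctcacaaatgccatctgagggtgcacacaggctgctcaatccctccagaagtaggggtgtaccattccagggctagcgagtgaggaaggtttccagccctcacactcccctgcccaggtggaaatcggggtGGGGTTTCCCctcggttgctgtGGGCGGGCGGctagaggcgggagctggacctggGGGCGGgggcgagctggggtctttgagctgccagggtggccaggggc

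The Col10a1 promoter had TATAAA starting at -31 from the start site and a G and C content of 41.6%, against a median of 51.2% over 33469 rat promoters. That of Col11a1 had 65.6%, Col11a2 62.8%, Col27a1 58.8%, Col9a2 52.0% and Col9a1 46.8%. GGGCGG was present in 3 of the 6 promoters (Col11a1, Col11a2 and Col27a1), against 30.5% of all promoters. The NF-kB consensus, the motif of a factor activated by IL-1β, matched at -102 in Col11a2 and at -176 in Col27a1, so in 2 of the 6 promoters against 3.54% of all. TATAAA was present in 1 of the 6 against 12.9%, ACAAAG in 1 against 16.3%, ACAAT in 1 (Col9a2) against 30.0%, and TGTGGT in 0 against 14.5%. These matches describe the letters of these windows only.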

How the data were processed

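RNA-seq was analysed for 12 libraries, 3 in each of RC, RM, MC and MM. The deposited tables give read counts per gene (raw counts, not normalised) and FPKM per gene as the authors computed them. The submitters' processing notes name HISAT2, HTSeq 0.11.2, Rnor_6.0 and GRCm38. No source used here gives the strand setting. The depth per library ranged from 16841580 to 25903459 reads on genes, and 3 reads correspond to 0.116 to 0.178 CPM. Counts of each species were filtered (filterByExpr), scaled by TMM and fitted with edgeR 4.0.16 (quasi-likelihood test, Benjamini–Hochberg over all genes tested, called at an adjusted P under 0.05) in R 4.3.3. The difference between species was a contrast in 1 fit of the 12 libraries with TMM set within species. FPKM served for levels and chain ratios, with exact permutation tests. Alternatives were other scalings, no filter, DESeq2 1.42.0, limma 3.58.1 on log2(FPKM + 1) and log2(FPKM + 0.1), the replicate number as a block, and leaving out each library. The scripts were tested on simulated counts first. Mouse gene models came from GENCODE M21 (implied FPKM lengths matched it within 1 base for 96.4% of 14360 genes and for 7 of the 8 members; Col11a2 had 6831 bases against 6874), and rat promoters from RefSeq (GRCr8).

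The members and lists were chosen with earlier results of these data known. Named genes were the members, for each list the 3 genes of smallest adjusted P, whichever the species, list genes called in opposite directions, and the 3 genes nearest to Col2a1, Col9a1 and Col10a1. Replicates of a group differed beyond sampling noise in every pair (chi-square per degree of freedom of 1.90 to 27.8), so none was counted as a duplicate.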

Additional observations from a re-analysis of the deposited data

Results flagged for a closer look

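Each member was marked because its change with IL-1β differed between rat and mouse in the direct test of the difference (edgeR quasi-likelihood test, Benjamini–Hochberg adjustment over 10912 genes). On the log2 scale, the mouse change less the rat change was -1.96 for Col2a1, -2.90 for Col9a1, -0.26 for Col9a2, -0.47 for Col9a3, -1.10 for Col10a1, -1.87 for Col11a1, -1.93 for Col11a2 and -1.79 for Col27a1. The same direction was called for 32.3% of all genes in this fit, which took the spread of each gene over both species together. Groups of 3 libraries were too small for a test of single outlying libraries. The species also differed in strain, depth, annotation and gene content, which cannot be told apart from a difference in the response itself.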

How the results depend on the processing

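The counts of members called (7 lower in rat, 8 lower in mouse, 0 higher in either, 8 with a difference between species) were unchanged by library size alone, RLE or upper quartile scaling, no filter on low counts, DESeq2, both limma fits (run within species only) and the omission of any 1 library. The study's thresholds, read as a log2 fold change and an unadjusted P, gave 6 in rat and 8 in mouse. With 1 library left out, the share of reads on the set, model minus control, ranged from -1.45 to -1.32 percentage points in rat and from -1.65 to -1.62 in mouse. Same-numbered libraries of control and model did not deviate together (correlations of -0.098 to 0.085 in rat and 0.001 to 0.015 in mouse). With 3 libraries per group this cannot exclude a shared origin, so whether the numbers pair the samples is not settled. A fit with the replicate block gave 7 and 8 members lower in rat and mouse and 8 differences, and not every library correlated best with its own number.

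Alternatives for genes outside the set were chosen after seeing the data. Of these, the Col3a1 log2 fold change in mouse reversed with library size alone (-0.1167) and with limma on log2(FPKM + 1) (-0.1162) and log2(FPKM + 0.1) (-0.1165), against 0.16 with TMM. The Ddah2 log2 fold change in rat, not called, ranged from -0.36 to 0.089 with 1 library left out, reversing without RC replicate 3 or RM replicate 2. With library size alone, the dedifferentiation markers called higher in MM went from 4 to 2 and the other collagens of the collagen IX class called lower from 2 to 4. The causes were not tested. The few reads on Col10a1 limit its result in rat, where its log2 fold change ranged from -0.68 to -0.10 with 1 library left out.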

Other observations

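Among the markers of dedifferentiated cells, Tnc (tenascin C) changed by 2.91 on the log2 scale in mouse (SE 0.028, from 65.9 to 409.7 FPKM) and by 0.12 in rat (SE 0.071, adjusted P = 0.233, edgeR). Postn (periostin) was called in opposite directions, 0.90 in rat (SE 0.137) and -2.88 in mouse (SE 0.071). Of the genes that leukocytes also express, Cd14 changed by 0.86 in rat (SE 0.090) and 3.96 in mouse (SE 0.106), and Cd68 by 0.92 (SE 0.158) and 1.51 (SE 0.137). Csf1r, below 1 FPKM in all groups, was called in opposite directions (-1.20 in rat and 0.70 in mouse). Its mouse call was lost with library size alone (0.42), and with 1 library left out its adjusted P reached 0.116 (edgeR). Laptm5 changed by -1.61 in rat (SE 0.214). Among the low muscle and endothelial markers, Tnnt3 changed by -1.12 in rat (SE 0.262) and -5.15 in mouse (SE 0.456), Des by -3.22 in mouse (SE 0.215) and -0.42 in rat (SE 0.157, adjusted P = 0.0591, edgeR), Acta1 by -1.61 in mouse (SE 0.346), and Erg by -1.12 in rat (SE 0.183) and -0.37 in mouse (SE 0.083). Vwf changed by 2.18 in mouse (SE 0.212), and Tek by -0.80 (SE 0.316). The Tek call was lost with DESeq2, and with 1 library left out its adjusted P reached 0.165 (edgeR).

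Values chosen after they were seen concern collagen I. In the RC libraries Col1a2 averaged 35.2 FPKM beside 2164 FPKM for Col1a1, whereas in MC the averages were 963 and 1887 FPKM. The chains of collagen I are assembled together, and the rat gene model behind the low Col1a2 level was not analysed here.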
